A study of Mus musculus with 20 samples.

Results

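Tubulin genes were followed in mouse skeletal muscle on 20 Affymetrix arrays through every probe set whose single gene symbol in the platform annotation starts with Tuba (alpha tubulin) or Tubb (beta tubulin). The rule gave 13 of the 10748 probe sets of the deposited table, 5 for alpha and 8 for beta tubulin, and dim probe sets were kept. They stand for 9 gene symbols: Tuba1a, Tuba4a, Tuba8, Tubb2a, Tubb2b, Tubb4b, Tubb5, Tubb6 and the transcribed pseudogene Tubb2a-ps2. A further 3 probe sets carry such a symbol beside another gene's and were not taken. Of the 13, 10 lay above the lowest 30% of the table by mean signal, and Tubb2a-ps2, Tubb2b and 1 of the 2 Tubb4b probe sets lay within it.

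The arrays form 5 groups of 4, all from female C57BL/6 mice at 14 weeks of age, with muscles frozen at once after removal. They are gastrocnemius, a calf muscle, of transgenic mice carrying a mutant human SOD1 (SOD1G93A, called SOD1 here), a model of amyotrophic lateral sclerosis described as symptomatic at this age; gastrocnemius of mice whose nerve was crushed for 30 s at 12 weeks, 2 weeks before the muscle was taken; and gastrocnemius of non-transgenic (NTg) mice. Triceps, a forelimb muscle, came from SOD1 and from NTg mice. Per the series' design, both muscles of a genotype came from 4 mice, and the crushed group is a control for denervation. Neither the genotype of the mice with a crushed nerve nor the promoter of the transgene is stated in the sources used here, and a sham operation was not analysed. One library is labelled inconsistently: the description of NTg triceps replicate 4 names gastrocnemius, while its title, source and tissue say triceps, the group it was kept in.

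Alpha and beta tubulin pair into dimers, and the dimers assemble into microtubules, the hollow tracks along which motors carry cargo and nuclei. In a muscle fibre microtubules form a lattice below the membrane and around the nuclei, and they are dense beneath the neuromuscular junction. Mammals carry several alpha and several beta genes, called isotypes, whose proteins differ mostly in their acidic tails and whose transcripts differ between tissues and stages. Tubb6 is a beta isotype that is raised in regenerating and dystrophic mouse muscle; Tuba8 is a divergent alpha isotype found in muscle, heart and testis; Tuba4a is an alpha isotype made without the final tyrosine, and its human form is a known amyotrophic lateral sclerosis gene. Tubb2a, Tubb2b and Tuba1a are prominent in neurons and during development, and Tubb4b and Tubb5 are widely expressed.

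Start-site sequences of 3 tubulin genes are shown because their transcripts went different ways in these muscles: Tubb2a was called higher in SOD1 gastrocnemius, Tuba8 lower in both SOD1 and crushed gastrocnemius, and Tubb4b lower in crushed gastrocnemius. Each runs 5′ to 3′ along the gene from 250 bases before to 50 bases after the start of the transcript in RefSeq, build GRCm38.p6, and capitals mark each CANNTG, the E-box that myogenic factors can bind.
Tubb2a (chr13:34077959-34078258, minus strand): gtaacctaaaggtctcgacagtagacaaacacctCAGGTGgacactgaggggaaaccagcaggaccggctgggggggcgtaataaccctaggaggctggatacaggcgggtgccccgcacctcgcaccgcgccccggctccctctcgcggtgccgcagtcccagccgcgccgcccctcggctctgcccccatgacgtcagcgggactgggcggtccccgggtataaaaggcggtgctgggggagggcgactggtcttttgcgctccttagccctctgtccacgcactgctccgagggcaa
Tuba8 (chr6:121210484-121210783, plus strand): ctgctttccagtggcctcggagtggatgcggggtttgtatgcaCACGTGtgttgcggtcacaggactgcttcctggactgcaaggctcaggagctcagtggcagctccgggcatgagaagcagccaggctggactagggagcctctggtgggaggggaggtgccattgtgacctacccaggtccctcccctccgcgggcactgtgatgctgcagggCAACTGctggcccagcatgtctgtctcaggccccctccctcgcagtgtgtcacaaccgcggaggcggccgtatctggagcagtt
Tubb4b (chr2:25224653-25224952, minus strand): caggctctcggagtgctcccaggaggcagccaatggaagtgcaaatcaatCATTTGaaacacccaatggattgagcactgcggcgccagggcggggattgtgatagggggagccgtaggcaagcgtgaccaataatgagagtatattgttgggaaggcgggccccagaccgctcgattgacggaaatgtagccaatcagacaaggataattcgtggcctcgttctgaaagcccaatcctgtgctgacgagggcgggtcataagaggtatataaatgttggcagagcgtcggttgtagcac
In Tubb2a the capitals are CAGGTG, at -216 to -211 counted from the start, and a TATAAA begins at -29. In Tuba8 they are CACGTG, beginning at -207, and CAACTG, beginning at -34, and no TATAAA or CCAAT was found on either strand. In Tubb4b they are CATTTG, beginning at -200, and CCAAT stood in 5 places between -221 and -15, against a median of 0 places over all 32851 promoters of the table.

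The same windows were read for 6 of the member genes, these 3 and Tuba1a, Tuba4a and Tubb5, and each of the 6 held at least 1 CANNTG on either strand. Those of Tubb6, Tubb2b and Tubb2a-ps2 were not read, so nothing is said here of the start site of Tubb6. That motif is common: 72.31% of all 32851 promoters hold it. The narrower forms, which are cases of CANNTG, differ in frequency: CACGTG was found in Tuba8 and Tubb5 and in 7.15% of all promoters, and CAGCTG in none of the 6 and in 16.3% of all. TATAAA was found in Tubb2a and Tubb4b and in 13.62% of all promoters; in Tubb4b it lies after the start, at 19 to 24. CCAAT was found in Tubb4b, Tubb5 (2 places) and Tuba1a (1 place), and in 37.41% of all promoters. The MEF2 motif was found in none of the 6 and in 0.5571% of all promoters. These are matches of letters and say nothing of binding.

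Signals are the authors' MAS5 values on a log2 scale, so a step of 1 is a doubling, and levels of different probe sets are not set against each other. Arrays had medians of 6.61 to 6.76, and arrays of the same group had Pearson's r of 0.917 to 0.973 with each other over all probe sets. All 8 muscle-fibre markers on a fixed list were measured and none was dim. The titles call the samples biological replicates, and 4 arrays a group limit the precision of every value. In whole muscle, fewer cells of a type and less RNA per cell cannot be told apart. Differences were tested with limma over all 10748 probe sets, and one is called where its Benjamini-Hochberg adjusted p is under 0.05.

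Crush replicate 4 stood apart from its group: over all probe sets its r was at most 0.917 with crush replicates 1 to 3, which reached 0.964 to 0.968 among themselves, and 0.937 to 0.948 with the SOD1 gastrocnemius arrays. The summed signal of 7 markers of denervated muscle (acetylcholine receptor subunits, Myog, Runx1, Gadd45a and Ncam1) was 6842 in it, and 466, 532 and 584 in crush replicates 1 to 3. Changes in the crushed group are therefore given with and without this array.

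In SOD1 gastrocnemius 4 tubulin probe sets rose and 1 fell against NTg gastrocnemius. The risers were Tubb6 (41.7-fold), Tubb2a (4.30-fold), Tuba1a (1.82-fold) and 1 of 2 Tubb5 probe sets (1.65-fold), and Tuba8 fell 2.07-fold. Of all probe sets 9.13% were called in this comparison (4.88% higher and 4.24% lower), against 5 of 13 here. That background depended on single arrays: 184 probe sets were called without SOD1 gastrocnemius replicate 4 and 346 without replicate 2, where 981 were called with all arrays, and 1460 without crush replicate 4, which is in neither group. NTg gastrocnemius replicates 1 to 4, left out in turn, gave 463, 465, 500 and 385, and SOD1 gastrocnemius replicate 3 gave 409. Leaving out SOD1 gastrocnemius replicate 1 instead raised the count above 981. The tubulin calls numbered 3 to 5 in these fits. The arrays of SOD1 and NTg gastrocnemius did not overlap in 7 of 13, against 22.4% of all probe sets. The median change of the 13 was 0.00 on the log2 scale and that of all probe sets 0.01, with 7 tubulin changes above 0 and 6 below.

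Tubb6 (probe set 1416431_at) had 7.71, 8.69, 8.75 and 8.92 in SOD1 gastrocnemius, against 4.37, 2.03, 2.24 and 3.92 in NTg gastrocnemius. The groups did not overlap, and the lowest SOD1 array stood more than 3 log2 steps above the highest NTg array. The means were 8.52 ± 0.55 in SOD1 and 3.14 ± 1.18 in NTg gastrocnemius (SD, n = 4 each), a log2 change of 5.38 with SE 0.62 and a limma adjusted p of 0.000100. The NTg values lie near the low end of the scale, where MAS5 values scatter, and the size of the fold depends on them: with values below 5 raised to 5, the change was 3.52 (adjusted p = 0.00481), still called. The 95% interval of the fold in the values as deposited ran from 17.0 to 102.

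Tubb2a (1427347_s_at) had 6.55, 7.35, 7.60 and 7.33 in SOD1 gastrocnemius, against 5.48, 5.50, 4.96 and 4.50 in NTg gastrocnemius. The groups did not overlap, and the log2 change was 2.10 (SE 0.42, limma adjusted p = 0.00726). The suffix of this probe set marks that its probes can match more than 1 transcript of a family, so closely related beta tubulins may add to its signal. Tubb2b, its close relative, had 5.18, 5.38, 5.48 and 5.97 in SOD1, against 4.94, 5.04, 4.68 and 4.84 in NTg gastrocnemius. Its groups did not overlap either, but the change of 0.63 was not called (adjusted p = 0.177), and the probe set is dim.

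Tubb5, a widely expressed beta isotype, was measured by a pair of probe sets. The first, 1416256_a_at, had 8.16, 8.66, 8.60 and 8.66 in SOD1 gastrocnemius, against 7.94, 7.74, 7.65 and 7.84 in NTg gastrocnemius; every SOD1 array was above every NTg array, and the change of 0.73 (SE 0.14) was called (adjusted p = 0.00584). The second, 1455719_at, had 6.72, 7.08, 6.99 and 6.96 in SOD1, against 6.71, 6.56, 5.95 and 6.54 in NTg. The closest arrays of the groups, at 6.72 and 6.71, all but met, and its change of 0.50 was not called (adjusted p = 0.119). Their r over the 20 arrays was 0.43.

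Tuba1a (1418884_x_at), the alpha isotype of developing neurons, had 8.97, 9.20, 9.50 and 9.71 in SOD1 gastrocnemius, against 8.95, 8.61, 8.07 and 8.31 in NTg gastrocnemius. The lowest SOD1 array was just above the highest NTg array. The log2 change was 0.86 (SE 0.23, adjusted p = 0.0262), and the suffix of the probe set again allows matches to related alpha tubulins. The call was lost when NTg gastrocnemius replicate 3 (change 0.72, adjusted p = 0.0873) or 4 (0.80, 0.0752), or SOD1 gastrocnemius replicate 2 (0.91, 0.0526), 3 (0.81, 0.0719) or 4 (0.74, 0.108) was left out.

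Tuba8 (1419518_at) had 9.39, 8.84, 8.97 and 8.37 in SOD1 gastrocnemius, against 9.90, 9.98, 9.78 and 10.10 in NTg gastrocnemius. All SOD1 arrays were below all NTg arrays, with a log2 change of -1.05 (SE 0.27) and an adjusted p of 0.0241. This call was lost without NTg gastrocnemius replicate 1 (change -1.06, adjusted p = 0.0515), 2 (-1.03, 0.0567) or 4 (-0.99, 0.0655), and without SOD1 gastrocnemius replicate 2 (-1.03, 0.0603), 3 (-1.07, 0.0519) or 4 (-0.87, 0.102), with the change kept below 0 in each.

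None of the remaining tubulin probe sets was called in SOD1 gastrocnemius. Tuba4a was measured by 3 probe sets, and 1417373_a_at had 12.33, 12.34, 12.22 and 11.85 in SOD1, against 12.11, 12.30, 12.37 and 12.31 in NTg gastrocnemius. Its change was -0.09 (95% interval -0.58 to 0.41), and the other two Tuba4a probe sets had -0.25 and -0.42, none of them called. Tubb4b (1423642_at) had 9.43, 9.53, 9.25 and 9.17 in SOD1, against 9.55, 9.59, 9.43 and 9.50 in NTg gastrocnemius. The groups overlapped and the change was -0.17 (95% interval -0.56 to 0.21). The dim second Tubb4b probe set had a change of 0.00 and the pseudogene Tubb2a-ps2 one of -0.34, with wide intervals from -1.22 to 1.23 and from -1.62 to 0.94. Over all 20 arrays these last 2 ranged from 2.38 to 5.67 and from 0.37 to 3.97, and every group overlapped its NTg group.

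**Figure D1:**
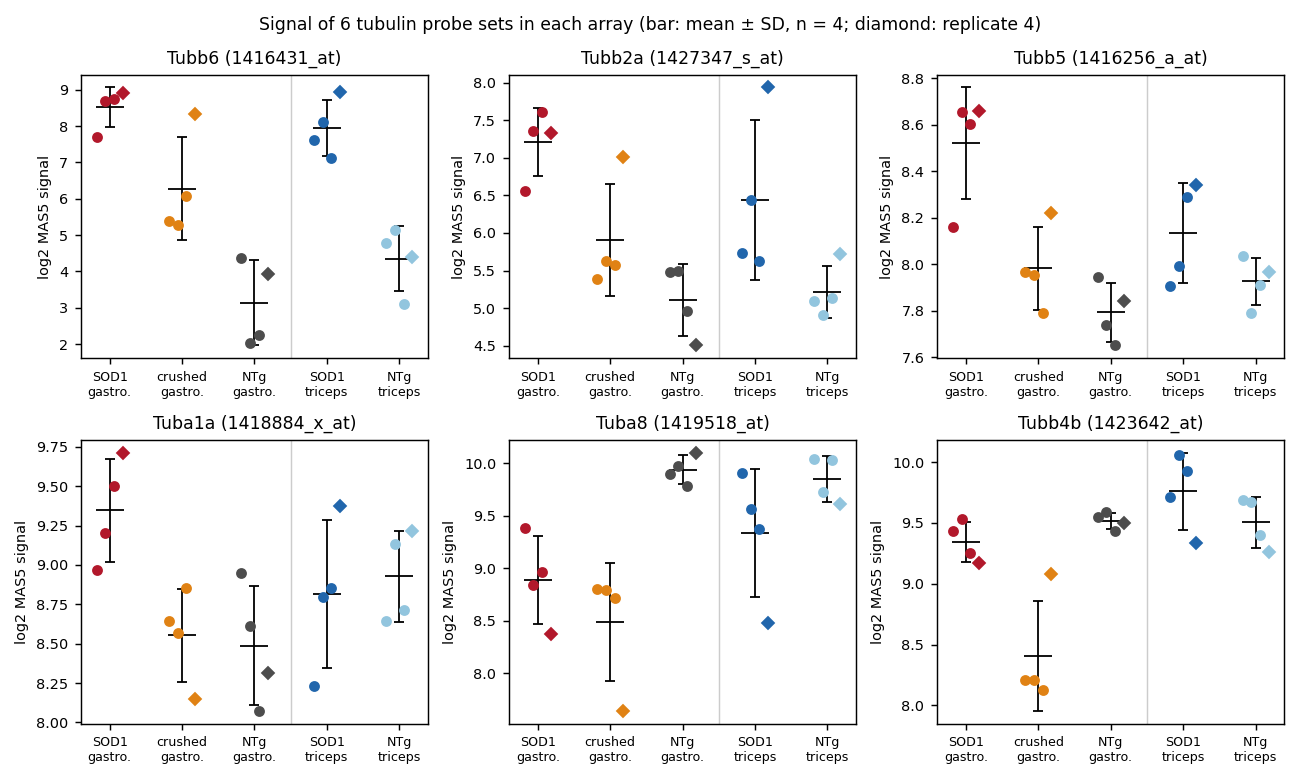
Log2 MAS5 signal (y axis, a scale of its own in each panel) of 6 tubulin probe sets in each array of the 5 groups (x axis), with circles for replicates 1 to 3, diamonds for replicate 4 and bars for the mean ± SD of 4 arrays. Tubb6 separates both SOD1 muscles from NTg muscle, Tuba8 is lower in SOD1 and crushed gastrocnemius, and Tubb4b is low in crush replicates 1 to 3.

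Markers of denervated muscle changed in the same comparison: 7 of 7 measured rose in SOD1 gastrocnemius, and their summed linear signal was 1473 to 4882 in SOD1, against 320.4 to 385.6 in NTg gastrocnemius. Within the SOD1 arrays, replicate 1 had the lowest sum (1473) and also the lowest Tubb6 (7.71), Tubb2a (6.55), Tubb5 (8.16) and Tuba1a (8.97) and the highest Tuba8 (9.39). Replicate 4 had the highest sum (4882), the highest Tubb6 (8.92) and Tuba1a (9.71) and the lowest Tuba8 (8.37). Its Tubb2a (7.33) was below that of replicate 3 (7.60). Macrophage markers rose too, 7 of 10 measured, with Lgals3 6.24-fold higher, and their sum was 1441 to 2232 in SOD1, against 768.2 to 1009.6 in NTg gastrocnemius. Ptprc, a marker of blood-derived cells, was 2.01-fold higher (adjusted p = 0.0342), and 0 of 7 fibroblast, 0 of 6 endothelial and 0 of 8 muscle-fibre markers were called. Of 6 smooth muscle and pericyte markers, Abcc9 fell (change -0.60, adjusted p = 0.0431). Of 6 Schwann cell and nerve markers, Uchl1 rose (6.10-fold, adjusted p = 0.0151), while 4 of the 6 had changes below 0 and the median was -0.28, and 0 of 4 dividing-cell markers were called. Chrng, Runx1 and Ncam1 of the denervated-muscle list and Cd68 and Tyrobp of the macrophage list were dim over the arrays, as were Ptprc and Uchl1. The part of these cell types in the tubulin signals was not tested.

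In SOD1 triceps 1 tubulin probe set was called against NTg triceps, and it was Tubb6. Only 0.214% of all probe sets, 23 in number, were called here, all of them higher; without crush replicate 4, which is in neither group, 157 (1.46%) were called, 139 higher and 18 lower, and with a single triceps array left out 5 to 48, the lowest count without NTg triceps replicate 3 or SOD1 triceps replicate 4, 10 without NTg triceps replicate 2 and 48 without NTg triceps replicate 1. Groups in 6.48% of all probe sets did not overlap between the groups, against 1 of 13 tubulin probe sets. Tubb6 had 7.62, 8.13, 7.13 and 8.94 in SOD1 triceps, against 4.78, 5.14, 3.09 and 4.39 in NTg triceps, without overlap. Its change was 3.60 (SE 0.62, 12.1-fold, 95% interval 4.94 to 29.7, limma adjusted p = 0.0130). The call was lost without SOD1 triceps replicate 4 (change 3.27, adjusted p = 0.0919), without NTg triceps replicate 3 (3.18, 0.0611) and with values below 5 raised to 5 (2.92, 0.0586). It was kept without NTg triceps replicate 4, the array with the conflicting description (3.61, 0.0306).

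Tubb2a in SOD1 triceps had 5.74, 6.43, 5.63 and 7.94, against 5.10, 4.90, 5.13 and 5.71 in NTg triceps. Replicates 1 and 3 stood at or near the highest NTg array, and the change of 1.22 was not called (adjusted p = 0.243). Tuba8 had 9.91, 9.57, 9.37 and 8.48 in SOD1, against 10.04, 9.72, 10.03 and 9.61 in NTg triceps. These groups overlapped and the change of -0.52 was not called (95% interval -1.09 to 0.05). Tuba1a, with a change of -0.11 (95% interval -0.59 to 0.37), and Tubb5, with 0.21 (-0.08 to 0.49), were not called either. The median change of the 13 probe sets was -0.11, against 0.01 over all probe sets.

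SOD1 triceps replicate 4 was the outermost array of its group for Tubb6, Tubb2a and Tuba8, and its denervated-muscle sum was 5923, against 894.8, 1306 and 1286 in SOD1 triceps replicates 1 to 3. In NTg triceps the sums were 291.1 to 380.7. None of the 7 denervated-muscle markers was called in triceps, although their median change was 2.58. Muscle-fibre markers had a summed signal of 15359 to 35384 in SOD1, against 25022 to 55336 in NTg triceps, and none was called, with all 8 changes below 0. Endothelial sums were 343.2 to 424.2 in SOD1, against 481.7 to 495.3 in NTg triceps, and smooth muscle and pericyte sums 1922 to 2047 in SOD1, against 2149 to 2614 in NTg triceps. Neither pair of ranges overlapped, and 0 of 6 markers of each list were called. The part of these cell types in the triceps values was not tested.

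**Figure D2:**
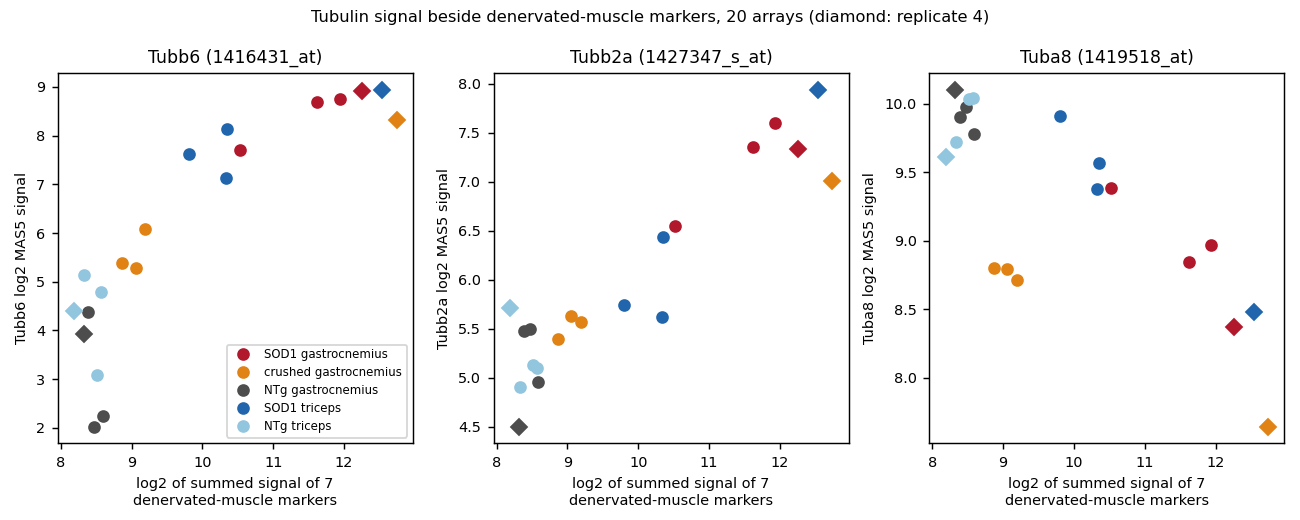
Log2 signal of Tubb6, Tubb2a and Tuba8 (y axes) against the log2 of the summed linear signal of 7 denervated-muscle markers (x axes) in all 20 arrays, coloured by group, with diamonds for replicate 4. Crush replicate 4 and SOD1 triceps replicate 4 lie at the far right, beyond SOD1 gastrocnemius replicates 2 to 4, SOD1 gastrocnemius replicate 1 lies near SOD1 triceps replicates 2 and 3, and crush replicates 1 to 3 lie to the left with Tuba8 at 8.71 to 8.80.

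In crushed gastrocnemius Tubb6 rose 8.77-fold, and Tuba8 and Tubb4b fell 2.73-fold and 2.16-fold, against NTg gastrocnemius. Those were 3 of 13 probe sets, where 2.87% of all were called (0.884% higher and 1.98% lower). Of all probe sets 308 were called with all arrays; NTg gastrocnemius replicates 1 to 4, left out in turn, gave 160, 105, 127 and 74, and crush replicates 1 and 2 gave 193 and 96, with the tubulin count at 3 in each. Over every single array of these groups left out, crush replicate 3 among them, the counts ran from 74 to 371. The same 3 did not overlap with NTg, against 13.9% of all probe sets. The NTg arrays are the same as in the comparison of SOD1 gastrocnemius, so changes in both comparisons share that error and are given side by side. Tubb2a and Tubb5 were called in neither direction here.

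Tubb6 had 5.38, 5.29, 6.08 and 8.33 in crushed, against 4.37, 2.03, 2.24 and 3.92 in NTg gastrocnemius. The groups did not overlap, but crush replicate 4 lay over 2 log2 steps above the rest of its group. The change was 3.13 (SE 0.62, adjusted p = 0.0111), and 2.45, or 5.45-fold, without crush replicate 4 (adjusted p = 0.0192). With values below 5 raised to 5 it was 1.27 and not called (adjusted p = 0.196), so the size and the call rest on how far below 5 the NTg values lie.

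Tuba8 had 8.80, 8.79, 8.71 and 7.64 in crushed gastrocnemius, against 9.90, 9.98, 9.78 and 10.10 in NTg gastrocnemius. Every crushed array was below every NTg array, with replicates 1 to 3 close together and replicate 4 lower. The signal fell by 1.45 (SE 0.27, adjusted p = 0.00718), and by 1.17 without crush replicate 4 (adjusted p = 0.0137). This call was kept under all 17 alternatives tried, each single array left out among them, with changes between -1.56 and -1.17.

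Tubb4b (1423642_at), a widely expressed beta isotype, had 8.21, 8.21, 8.13 and 9.08 in crushed gastrocnemius, against 9.55, 9.59, 9.43 and 9.50 in NTg gastrocnemius. Every crushed array was below every NTg array. The signal fell by 1.11 (SE 0.18, adjusted p = 0.00383), and by 1.33 without crush replicate 4 (adjusted p = 0.000110). In SOD1 gastrocnemius the same probe set was at 9.17 to 9.53.

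For Tuba4a the calls depended on crush replicate 4 and on the processing. Probe set 1417374_at had 10.61, 10.64, 10.46 and 11.96 in crushed gastrocnemius, against 11.44, 11.78, 11.85 and 11.72 in NTg gastrocnemius, so replicates 1 to 3 were below and replicate 4 above all NTg arrays. Its change was -0.78 and not called (adjusted p = 0.0941), and without crush replicate 4 it fell by 1.13 (adjusted p = 0.00131). Tuba4a probe set 1417373_a_at had 11.63, 11.69, 11.37 and 12.60 in crushed, against 12.11, 12.30, 12.37 and 12.31 in NTg gastrocnemius. The pattern was the same, and its change without crush replicate 4 was -0.71 (adjusted p = 0.0572), not called. With all 4 crushed arrays kept, both were called lower with quantile normalization (adjusted p = 0.0310 for 1417374_at and 0.0365 for 1417373_a_at) and with array weights (0.000350 and 0.0157). These probe sets had an r of 0.87 over the 20 arrays, while the third, 1417375_at, had 0.43 and 0.41 with them. The third overlapped NTg, at 5.85, 6.27, 5.98 and 6.10 in crushed, against 5.86, 6.82, 6.07 and 6.68 in NTg gastrocnemius (change -0.31, adjusted p = 0.564; -0.32 without replicate 4).

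Without crush replicate 4 the crushed group gave 5 called tubulin probe sets, where 3.45% of all were called (1.62% higher and 1.83% lower): Tubb6 and Tubb5 (1455719_at) higher, and Tuba8, Tubb4b and Tuba4a (1417374_at) lower. Tubb5 by that probe set had 7.15, 7.14, 7.26 and 6.65 in crushed, against 6.71, 6.56, 5.95 and 6.54 in NTg gastrocnemius, and its change without replicate 4 was 0.75 (adjusted p = 0.0484). The other Tubb5 probe set had 7.96, 7.96, 7.79 and 8.22 in the crushed arrays and a change of 0.11 without replicate 4, so the pair differed in whether it was called. Tuba1a, with 8.65, 8.57, 8.85 and 8.15 in the crushed arrays, overlapped NTg gastrocnemius, and its change over all 4 was 0.07 (95% interval -0.41 to 0.55) and 0.20 without replicate 4. Tubb2a, with 5.39, 5.63, 5.57 and 7.01, overlapped as well (change 0.79, adjusted p = 0.328; 0.42 and 0.646 without replicate 4).

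**Figure D3:**
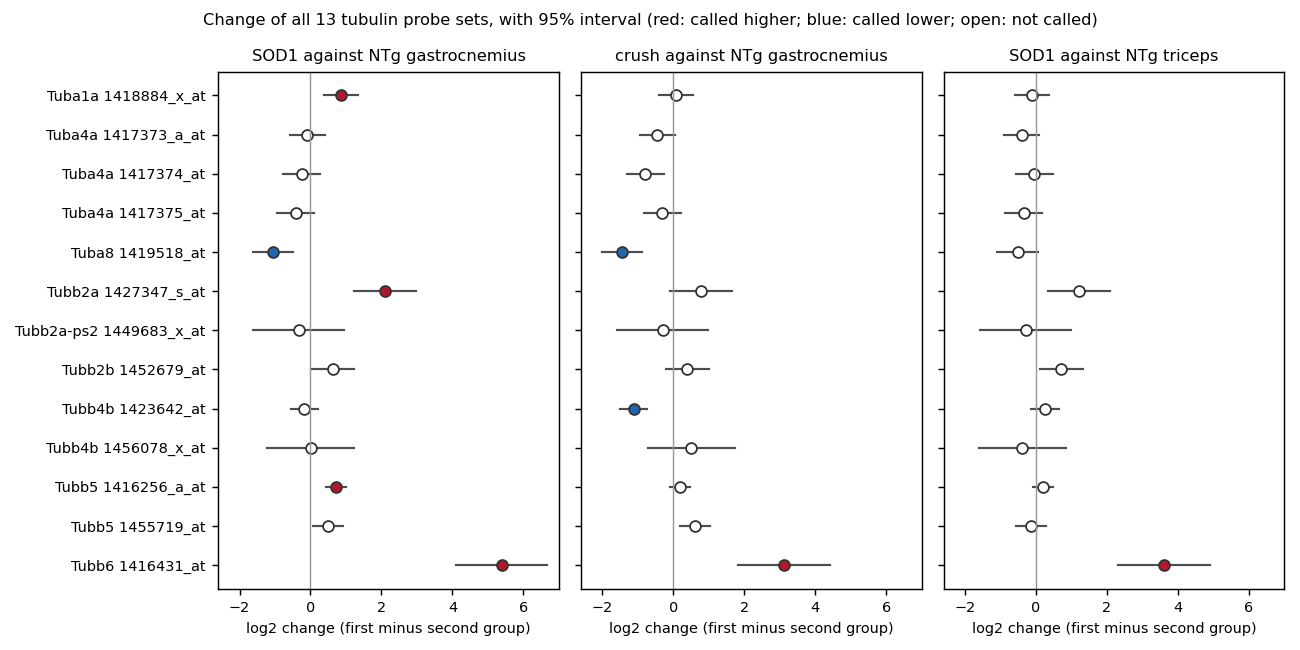
Log2 change with its 95% interval (x axis) of each of the 13 tubulin probe sets (rows) in SOD1 against NTg gastrocnemius, crushed against NTg gastrocnemius and SOD1 against NTg triceps, with red points called higher, blue points called lower and open points not called. Tubb6 lies right of 0 in all 3 panels, at 5.38, 3.13 and 3.60, and most other points lie near 0; the first and second panels share the NTg arrays.

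Denervated-muscle markers were not called in crushed gastrocnemius (0 of 7), with a median change of 1.53 and a sum of 466.1 to 6842, against 320.4 to 385.6 in NTg gastrocnemius. Without crush replicate 4 the median change was 0.50, and again 0 of 7 were called. Macrophage markers were not called with or without it (0 of 10), with a sum of 894.2 to 1358, against 768.2 to 1009.6 in NTg. All 10 macrophage changes were above 0 over all 4 crushed arrays. Dividing-cell sums were 309.9 to 363.1 in crushed, against 231.9 to 255.6 in NTg gastrocnemius, with 3 of 4 markers dim and 0 called. Lymphocyte and granulocyte sums, from 2 dim markers, were 50.1 to 427.1 in crushed, against 37.0 to 47.3 in NTg, with 0 called. Of 6 measured Schwann cell and nerve markers, Mbp, a myelin gene, fell by 2.35 (adjusted p = 0.0185), and by 1.97 without crush replicate 4 (adjusted p = 0.0405). The list did not move as one: 4 of the 6 changes were below 0 and 2 above, the highest at 2.04. Without crush replicate 4, Uchl1 had a change of 1.88 and Ngfr one of 0.93, neither called. Muscle-fibre sums were 28924 in crush replicate 3 and 58328 to 61055 in the other crushed arrays, against 30948 to 52755 in NTg gastrocnemius. Of the 8 muscle-fibre markers 0 were called. Whether these cells bear on the tubulin values was not tested.

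Set directly against crushed gastrocnemius, SOD1 gastrocnemius gave no called tubulin by limma, and 0% of all probe sets were called. At an unadjusted p under 0.05 the counts were 6 of 13 tubulin probe sets and 11.6% of all. Tubb4b and Tuba1a did not overlap between SOD1 and crushed gastrocnemius, as against 5.29% of all probe sets. Over all probe sets crush replicate 4 was more like the SOD1 gastrocnemius arrays than its own group. Leaving it out therefore tends to widen this contrast, and the values without it are no separate support for a difference. Without crush replicate 4, 5.24% of all probe sets and 5 of 13 tubulins were called, all 5 higher in SOD1 gastrocnemius (2.55% of all). They were Tubb6 (change 2.94, 7.65-fold, adjusted p = 0.00640), Tubb2a (1.68, 0.0217), Tubb4b (1.16, 0.000383), Tuba4a 1417374_at (0.88, 0.00816) and Tubb5 1416256_a_at (0.62, 0.0150). Tuba8 was not called, with 0.12 without that array and, over all arrays, 0.40 (95% interval -0.17 to 0.97).

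Crush replicate 4 itself lay nearer to the SOD1 gastrocnemius mean than to the mean of crush replicates 1 to 3 in 10 of the 13 tubulin probe sets. The array as a whole leaned the same way, with r of 0.937 to 0.948 with SOD1 gastrocnemius and at most 0.917 with crush replicates 1 to 3. The share of all probe sets nearer to the SOD1 mean was not computed, so the 10 of 13 has no background beside it. For Tubb6 crush replicate 4 was 0.19 from the SOD1 mean and 2.74 from that of replicates 1 to 3, and for Tubb2a 0.20 and 1.48. The exceptions were Tuba1a, Tuba8 and Tuba4a 1417375_at. In Tuba8 it was lower than both means, by 1.25 and 1.13.

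**Figure D4:**
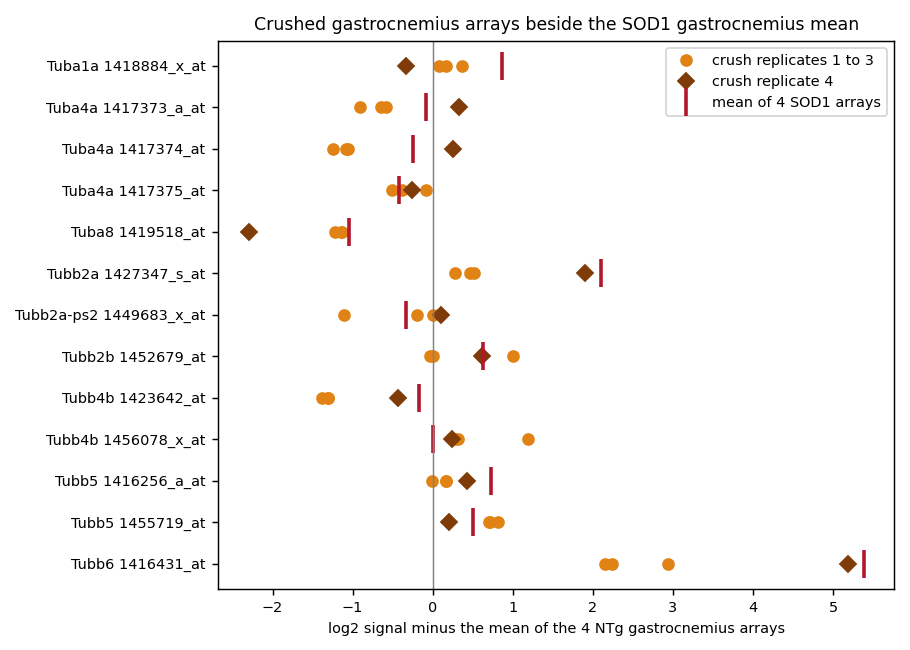
Log2 signal minus the mean of the 4 NTg gastrocnemius arrays (x axis) of each tubulin probe set (rows) in crush replicates 1 to 3 (circles), crush replicate 4 (diamonds) and the mean of the 4 SOD1 gastrocnemius arrays (bars). Crush replicate 4 lies beside the SOD1 bar for Tubb6 and Tubb2a, at 5.19 and 1.90, and away from it for Tuba8 and Tuba1a.

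The SOD1 effect in gastrocnemius minus that in triceps was not called for any tubulin, and 0% of all probe sets were called by limma (8.85% of all and 3 of 13 tubulins at an unadjusted p under 0.05). For Tubb6 the difference was 1.78 (95% interval -0.05 to 3.61), for Tubb2a 0.88 (-0.35 to 2.12) and for Tuba8 -0.53 (-1.33 to 0.27). The 3 under the unadjusted threshold were Tuba1a (0.97) and both Tubb5 probe sets (0.52 and 0.64). The Tubb6 difference rests on NTg values below 5: with values raised to 5 it was 0.61 (95% interval -0.95 to 2.16).

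No tubulin was called between the muscles within a genotype. In NTg mice 1.73% of all probe sets and 0 of 13 tubulins were called by limma between gastrocnemius and triceps (14.2% and 1 of 13 at an unadjusted p under 0.05), and the largest tubulin differences were -1.21 for Tubb6 (95% interval -2.51 to 0.08) and 0.77 for Tubb2a-ps2. Both rest on values below 5: raised to 5, the differences were -0.04 for Tubb6 and 0 for Tubb2a-ps2. Tubb2b had 4.94, 5.04, 4.68 and 4.84 in NTg gastrocnemius, against 3.62, 4.61, 4.15 and 4.24 in NTg triceps. It was the 1 tubulin probe set whose groups did not overlap (9.52% of all), and its difference of 0.72 was not called (adjusted p = 0.240). In SOD1 mice 3.37% of all probe sets and 0 of 13 tubulins were called between the muscles (20.2% and 5 of 13 at an unadjusted p under 0.05), with Tubb5 1416256_a_at at 0.39 (adjusted p = 0.116) and Tubb6 at 0.57 (95% interval -0.72 to 1.86). With 1 array left out, 1 tubulin was called there: Tubb5 1416256_a_at without SOD1 gastrocnemius replicate 1 (0.51, adjusted p = 0.0477), Tubb5 1455719_at without SOD1 triceps replicate 3 (0.71, 0.0495) and Tubb2a without SOD1 triceps replicate 4 (1.28, 0.0290). The NTg comparison gave 0 also without NTg triceps replicate 4. Schwann cell and nerve sums were 1110.4 to 1514.6 in NTg gastrocnemius, against 450.7 to 504.0 in NTg triceps. In SOD1 mice they were 698.9 to 1530.5, against 323.7 to 556.6. All 6 of these markers were higher in gastrocnemius in both genotypes. Macrophage sums were 768.2 to 1009.6 in NTg gastrocnemius, against 1046.2 to 1634.3 in NTg triceps. The part of these cell types in the differences between the muscles was not tested.

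From the highest mean downward, Tubb6 was ordered as SOD1 gastrocnemius (8.52 ± 0.55), SOD1 triceps (7.95 ± 0.77), crushed gastrocnemius (6.27 ± 1.42), NTg triceps (4.35 ± 0.89) and NTg gastrocnemius (3.14 ± 1.18; SD, n = 4 each). Neighbours in that order overlapped, except that the lowest crushed array (5.29) lay just above the highest NTg triceps array (5.14), a pair that was not tested. From the lowest mean upward, Tuba8 was ordered as crushed gastrocnemius (8.49 ± 0.56), SOD1 gastrocnemius (8.89 ± 0.42), SOD1 triceps (9.33 ± 0.61), NTg triceps (9.85 ± 0.22) and NTg gastrocnemius (9.94 ± 0.13). Each neighbouring pair in that order overlapped.

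The genes most like Tubb6 over the 20 arrays, among 4825 genes above the lowest 30%, were Cpne2 (r = 0.93), Rb1 (0.92), Atp13a3, Gpc1 and Zfp36l1 (0.91 each). With each group's mean taken out, r was 0.82 for Cpne2 and 0.70 to 0.74 for the others. Those most like Tuba8 were Nudt4 (r = 0.95), Ppp1r1a, Pdlim7 (0.93 each), Srf and Capzb (0.92 each), and with group means taken out r was 0.84 to 0.91. The arrays share groups and, for some, mice, so these values describe this set of arrays. The median r over the 4825 genes was -0.01 with Tubb6 and with Tuba8. High values were common, with a 95th percentile of r of 0.71 for Tubb6 and 0.77 for Tuba8. No such background was computed for r with group means taken out. The genes were picked by r over these same arrays, so those values are no separate support for a likeness. Srf is a transcription factor of muscle and cytoskeletal genes, Capzb caps actin filaments, Pdlim7 is a cytoskeletal scaffold protein and Rb1 restrains the cell cycle.

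Other genes of the microtubule system were read from 6 lists. In SOD1 gastrocnemius, where 4.88% of all probe sets were called higher and 4.24% lower, 2 of 19 measured motor genes rose and 2 fell: the dynein chains Dync1h1 (change 0.60, adjusted p = 0.0137) and Dync1i2 (0.53, 0.0259) rose, and the kinesin Kif1c (-0.65, 0.0206) and Pafah1b1, a dynein regulator (-0.51, 0.0181), fell. Of 19 folding genes, Tbca, a chaperone that holds beta tubulin, rose (0.55, 0.0372) and the prefoldin subunit Pfdn6 fell (-0.36, 0.0265). Of 17 microtubule-associated genes, Macf1, which links microtubules to actin, rose (1.24, 0.0205). None of 4 other tubulin genes, 7 tubulin-modifying enzymes and 5 destabilising or severing genes was called. The median change of these lists lay between -0.18 and 0.25, against 0.01 over all probe sets.

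In crushed gastrocnemius Kif1c (-0.60, adjusted p = 0.0492) and Pafah1b1 (-0.47, 0.0454) fell, 2 of 19 motor genes, where 1.98% of all probe sets were called lower, and no member of the other 5 lists was called. Without crush replicate 4 neither was called (Kif1c -0.55, adjusted p = 0.0833; Pafah1b1 -0.41, 0.0813), nor was any other member of the 6 lists. In SOD1 triceps no member of the 6 lists was called. List medians lay between -0.20 and 0.27 in crushed gastrocnemius, between -0.15 and 0.15 there without crush replicate 4, and between -0.09 and 0.17 in SOD1 triceps.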

How the data were processed

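The authors deposited log2 MAS5 signals of 10748 probe sets on 20 arrays (MAS5 per the submitters' processing notes; version and scaling not stated in the sources used). Per the labels' protocols, 4 ug of total RNA went into each cRNA preparation. Values run from -3.66 to 13.3 and were used as deposited, unfiltered and without further scaling; no detection calls were used here. Groups came from the titles.

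The platform annotation gives 1 symbol to 9874 probe sets, several to 387 and none to 487, and all 13 tubulin probe sets matched RefSeq (GRCm38.p6) by gene ID. All 20 arrays entered a limma fit of 5 group means (limma 3.58.1, R 4.3.3, eBayes with a trend, 15 residual degrees of freedom). Benjamini-Hochberg adjustment ran over all 10748 probe sets within each of 7 comparisons. The fit was tested on simulated data, and figures were drawn with matplotlib 3.10.9.

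The tubulin genes, lists and tests were chosen with earlier results of these data known. Every tubulin probe set is described. Of each pathway list the up to 3 called genes with the largest change against NTg are named; Pafah1b1 in SOD1 gastrocnemius and the named marker genes were added after their values were seen. A listed gene is represented by the brightest of its single-symbol probe sets. Alternatives were quantile normalization, 75th-percentile scaling, filters at 30% and 60%, a floor at 5, a fit on only the compared arrays, a replicate-number block, no trend, array weights, and each array left out in turn. Leaving crush replicate 4 out of comparisons it is not in was chosen after seeing the data.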

Additional observations from a re-analysis of the deposited data

Results flagged for a closer look

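Among 65 groups of 4 arrays, 13 tubulin probe sets in 5 groups, 6 held an array far from the other 3 of its group. Chance alone flags about 1 in 20 groups. The rule was not run over all probe sets, so the 6 have no background share beside them. Crush replicate 4, which stood apart from its group over all probe sets, was the flagged array for Tuba8 (7.64, next lowest 8.71), Tubb2a (7.01, next highest 5.63), Tubb4b 1423642_at (9.08, next highest 8.21) and Tuba4a 1417374_at (11.96, next highest 10.64). Crush replicate 1 was far above its group for the dim Tubb4b probe set 1456078_x_at (5.03, next highest 4.16). SOD1 gastrocnemius replicate 1 was far below its group for Tubb5 1416256_a_at (8.16, next lowest 8.60).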

How the results depend on the processing

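None of the 9 called tubulin changes reversed under the alternatives run for it. Of the 82 tubulin changes that were not called, 26 changed sign under at least 1 alternative, and the largest of those was 0.50 in size. The 5 calls in SOD1 gastrocnemius became 3 with the filter at 60%, which leaves out the dimmer Tubb6 and Tubb2a probe sets, and 3 to 5 with single arrays left out. The 1 call in triceps became 0 with that filter and with the floor at 5, and 0 to 1 with single arrays left out. The 3 calls in crushed gastrocnemius became 5 with quantile normalization, 6 with array weights, 2 with the filter at 60% and with the floor at 5, and 3 to 5 with single arrays left out. Between SOD1 and crushed gastrocnemius 0 became 7 with array weights and 0 to 5 with single arrays left out, and between SOD1 gastrocnemius and triceps 0 became 4 with array weights and 0 to 1 with single arrays left out; where no cause is named, the cause was not tested. Over all probe sets, settings that keep every array called 713 to 2809 in SOD1 gastrocnemius, 221 to 1016 in crushed gastrocnemius and 5 to 111 in SOD1 triceps, against NTg, where 981, 308 and 23 are reported; with single arrays of the compared groups left out they called 184 to 1438, 74 to 371 and 5 to 48. With the replicate number as a block the tubulin counts were the same, 5, 1, 3, 0, 0, 0 and 0, and Tubb6 in SOD1 gastrocnemius had an adjusted p of 4.87e-05. Same-numbered arrays of SOD1 gastrocnemius and triceps had correlations of deviations of 0.46, -0.07, -0.01 and 0.54. The highest with other-numbered triceps arrays were 0.14, 0.11, 0.05 and -0.03, so numbers 1 and 4 were more alike across the muscles and 2 and 3 were not. In NTg mice the same-numbered values were 0.13, 0.11, 0.11 and -0.07. The labels do not tie the numbers to mice, so they were not taken as pairs. Comparisons between the muscles thus treat arrays as independent, although both muscles came from the same mice per the design. MAS5 values below about 5 limit every Tubb6 fold.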
